A study of Homo sapiens with 18 samples.

Results

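N8 is a clone of HEK cells, an established human embryonic kidney line, that was put through CRISPR handling as a control and is labelled ATXN1L wild type. Its 3 arrays were compared with the 6 arrays of the other wild-type lines, the parental cells (3 arrays) and the control clone N4 (3 arrays), so that 9 of the 18 arrays of the series enter the comparison. The members were chosen by their titles alone. The other 9 arrays belong to A10, A30 and B21, which are labelled ATXN1L-KO and are called the KO-labelled lines here. Labels give all 6 lines the same handling: CRISPR treatment, puromycin selection and isolation of single colonies, in DMEM with serum. The parental cells carry that text too, although their own label names no CRISPR control, and no source used here says which guide N8 received. N8 is a single clone, so every p-value here covers the spread between its arrays and those of the other lines, which may be technical, and not the spread between clones.

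A line grown from a single cell carries whatever state and copy number that founder cell had, and later divisions add to it. HEK cells have an unstable karyotype and express developmental kidney genes beside neuronal genes. A control clone of a knockout study shares the handling of the knockout clones without the targeted change. ATXN1L and ATXN1 are proteins that bind CIC, a transcriptional repressor kept in check by MAP kinase signalling.

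The values are log2 signals as deposited, 1 per probe set and array, and a gene was read from the probe set with the highest mean. Array medians ran from 5.09 to 5.18 over the series. Across the 9686 genes tested, N8 arrays correlated with each other at r = 0.982 to 0.994 and with the parental and N4 arrays at r = 0.971 to 0.982, while parental and N4 arrays correlated with each other at 0.981 to 0.990. Genes are not independent replicates, so these values describe the arrays only. Replicate 1 of N8 stood somewhat apart from replicates 2 and 3 of its line, at r = 0.983 and 0.982 with them against 0.994 between them. To a lesser degree the same held for replicate 1 of the parental cells (0.988 and 0.988 against 0.994) and of N4 (0.988 and 0.989 against 0.994). The median SD over genes was 0.11 in N8, 0.092 in the parental cells and 0.095 in N4. A gene was tested where at least 3 of the 18 arrays exceeded 5.6, and no measure of background was used.

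ATXN1L, the gene targeted elsewhere in the series, read 7.18, 7.29 and 7.16 in N8, 7.05, 7.13 and 7.15 in the parental cells and 7.10, 7.16 and 7.24 in N4. The N8 readings overlapped those of N4 and lay just above those of the parental cells. The difference was 0.07 ± 0.07 (SE, adjusted p = 0.527). ATXN1 differed by −0.04 ± 0.12 (adjusted p = 0.882) and CIC by −0.02 ± 0.07 (adjusted p = 0.856). The 11 measured CIC targets were MAP kinase feedback and ETS factor genes, with GPR3, SHC3, CCND1 and PLK3 besides. Among them 0 were called in limma's test (adjusted p under 0.05) and 1 had an unadjusted p under 0.05, with a median difference of 0.082. Over all genes tested 18.4% were called, 32.1% had an unadjusted p under 0.05, and the median was 0.003. ETV4, an ETS factor gene repressed by CIC, read 5.37, 6.66 and 6.63 in N8 against 5.52, 5.59 and 5.70 in the parental cells and 5.67, 5.57 and 6.16 in N4. Replicate 1 of N8 was low and the other N8 readings lay above all 6 reference arrays, for a difference of 0.52 ± 0.23 (adjusted p = 0.135). Without replicate 1 of N8, when 1479 of all 9686 genes were called (15.3%), 3 of the 11 targets passed: ETV4 at 0.94 (adjusted p = 0.00288), ETV5 at 0.56 (adjusted p = 0.0418) and SPRY4 at 0.68 (adjusted p = 0.0401). With replicate 1 left out of every line, when 1803 genes were called, ETV4, ETV5 and SPRY4 were at 0.89, 0.45 and 0.59 (adjusted p = 0.00303, 0.0313 and 0.00324). With the replicate number as a block their adjusted p-values were 0.0521, 0.151 and 0.191, and 0 of the 11 were called.

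In the whole comparison, 1781 of the 9686 genes passed at an adjusted p under 0.05 (18.4%), of which 1001 were higher in N8 (10.3%) and 780 lower (8.05%). At an unadjusted p under 0.05, 3108 genes passed (32.1%). Of the genes tested, 70 had fewer than 3 arrays above 5.6 outside N8 and so were tested only because N8 was high, and 16 of them were among the 1001. Where such a gene is named, its difference is given as a description, without a p. Most of these differences were small: the median size was 0.122 over all genes and 0.327 over the genes called, and 34 genes were called with a difference of at least 1 on the log2 scale (0.351%), 18 of them higher and 16 lower. Against the parental cells alone, 743 genes were higher (7.67%) and 681 lower (7.03%). Against N4 alone, 829 were higher (8.56%) and 518 lower (5.35%). All 3 N8 arrays lay above all 6 reference arrays and the gene was called for 809 genes (8.35%), and below with a call for 614 genes (6.34%). With the replicate number as a block, 2471 genes passed (25.5%), among them all 1781. When the difference of each gene was taken relative to the running median of 41 neighbouring genes on its chromosome, 797 genes passed (8.23%), of which 634 were among the 1781. For the difference between the reference lines, N4 minus parental cells, 53 genes were called (0.547%), 20 higher (0.206%) and 33 lower (0.341%), or 168 in all with the replicate block.

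The 15 largest rises among the genes called with separated arrays spanned secreted signals, cytoskeletal and membrane proteins and a transcription factor. They are described by role, and since they were picked by the size of this difference, that size is a description. Each reading comes from all cells of a culture, in which more expressing cells and more RNA per cell cannot be told apart.

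Among secreted proteins and receptors, CCL2, the chemokine that draws monocytes, read 6.33, 6.69 and 6.63 in N8, against 5.09, 4.57 and 4.53 in the parental cells and 4.26, 4.84 and 3.62 in N4. All reference readings lay below 5.6 and all N8 readings above it, a difference of 2.07 ± 0.27 (adjusted p = 9.1e-05), or 4.18-fold. SPX, which encodes the peptide hormone spexin, read 6.29, 7.28 and 6.82 in N8, 5.78, 5.89 and 5.39 in the parental cells and 5.66, 5.52 and 5.71 in N4 (1.14 ± 0.16, adjusted p = 0.000184). The range among the N8 arrays of SPX was wider than the gap between the lowest of them and the highest reference array. GHR, the growth hormone receptor gene, read 5.67, 6.27 and 5.86 in N8, 5.28, 5.03 and 4.90 in the parental cells and 4.75, 4.74 and 4.59 in N4. Its 6 reference readings were again below 5.6, and N8 was higher by 1.05 ± 0.14. GHR was tested only through the N8 arrays, so this is a description. DOK6, an adaptor that docks on receptor tyrosine kinases, read 7.22, 6.95 and 7.39 in N8, 6.38, 6.45 and 6.12 in the parental cells and 5.74, 5.79 and 5.71 in N4. Here the reference lines themselves differed, by −0.57 in N4 against the parental cells (adjusted p = 0.0465), and N8 lay above both, by 1.16 ± 0.11 (adjusted p = 3.04e-06).

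Cytoskeletal and adhesion genes formed another share of the rises. ANKRD1, an ankyrin repeat protein gene that responds to YAP, read 7.93, 9.83 and 9.85 in N8, 7.21, 7.22 and 7.46 in the parental cells and 6.44, 7.25 and 7.36 in N4. Replicate 1 was the lowest N8 array and the N4 array of the same number the lowest of the reference. The difference was 2.05 ± 0.45 (adjusted p = 0.00477), and within replicate numbers 1, 2 and 3 it was 1.11, 2.60 and 2.44. CAPN6, a calpain family member without the catalytic cysteine that binds microtubules, read 8.89, 7.98 and 8.15 in N8, 6.15, 5.72 and 5.80 in the parental cells and 7.17, 6.96 and 6.50 in N4. It was ordered parental cells, N4, N8 with no overlap between lines, with N8 at 1.96 ± 0.18 above the mean of the others (adjusted p = 2.87e-06) and N4 at 0.99 above the parental cells (adjusted p = 0.0346). TMSB15A, a thymosin that binds actin monomers, read 8.59, 7.86 and 7.95 in N8 against 6.82, 7.18 and 7.09 in the parental cells and 7.04, 6.69 and 6.93 in N4, a rise of 1.18 ± 0.14 (adjusted p = 4.02e-05). Replicate 1 of N8 was the highest of its arrays. PCDHB10, a clustered protocadherin gene whose close paralogs may share probe signal, rose by 1.17 ± 0.19 (adjusted p = 0.000621), and EMP1, an epithelial membrane protein gene, by 1.10 ± 0.08 (adjusted p = 3.43e-07).

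The remaining rises were enzymes, a chromatin factor and a transcription factor. CA2, a carbonic anhydrase that hydrates carbon dioxide, read 7.18, 7.56 and 7.45 in N8, 5.95, 5.82 and 5.68 in the parental cells and 5.86, 6.19 and 6.02 in N4. The gap between the groups was wider than the range of either, at 1.48 ± 0.12 (adjusted p = 1.31e-06). ERAP2, an aminopeptidase that trims peptides for MHC class I, rose by 1.17 ± 0.09 (adjusted p = 1e-06), and DSEL, an epimerase-like gene of dermatan sulfate synthesis, by 1.13 ± 0.11 (adjusted p = 8.28e-06). NAP1L3, an X-linked nucleosome assembly gene, read 7.18, 6.85 and 7.03 in N8, 5.38, 5.47 and 5.03 in the parental cells and 5.43, 4.77 and 4.85 in N4 (1.87 ± 0.15, adjusted p = 1e-06). SOX11, a transcription factor of neural progenitors, read 6.82, 6.74 and 6.46 in N8, 6.04, 5.56 and 5.50 in the parental cells and 5.55, 5.29 and 5.36 in N4. It was higher in every N8 array than in any reference array, by 1.12 ± 0.16, and it too was tested only through the N8 arrays. GGT3P, a pseudogene of the gamma-glutamyltransferase family read from 1 of its 3 probe sets, rose by 1.11 ± 0.14 (adjusted p = 4.77e-05), and reads of its near-identical relatives may enter this value. For 6 of the 15 rises the mean of the reference arrays lay below 5.6. Of the 13 genes other than GHR and SOX11, 0 lost the call under any alternative run.

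**Figure D1:**
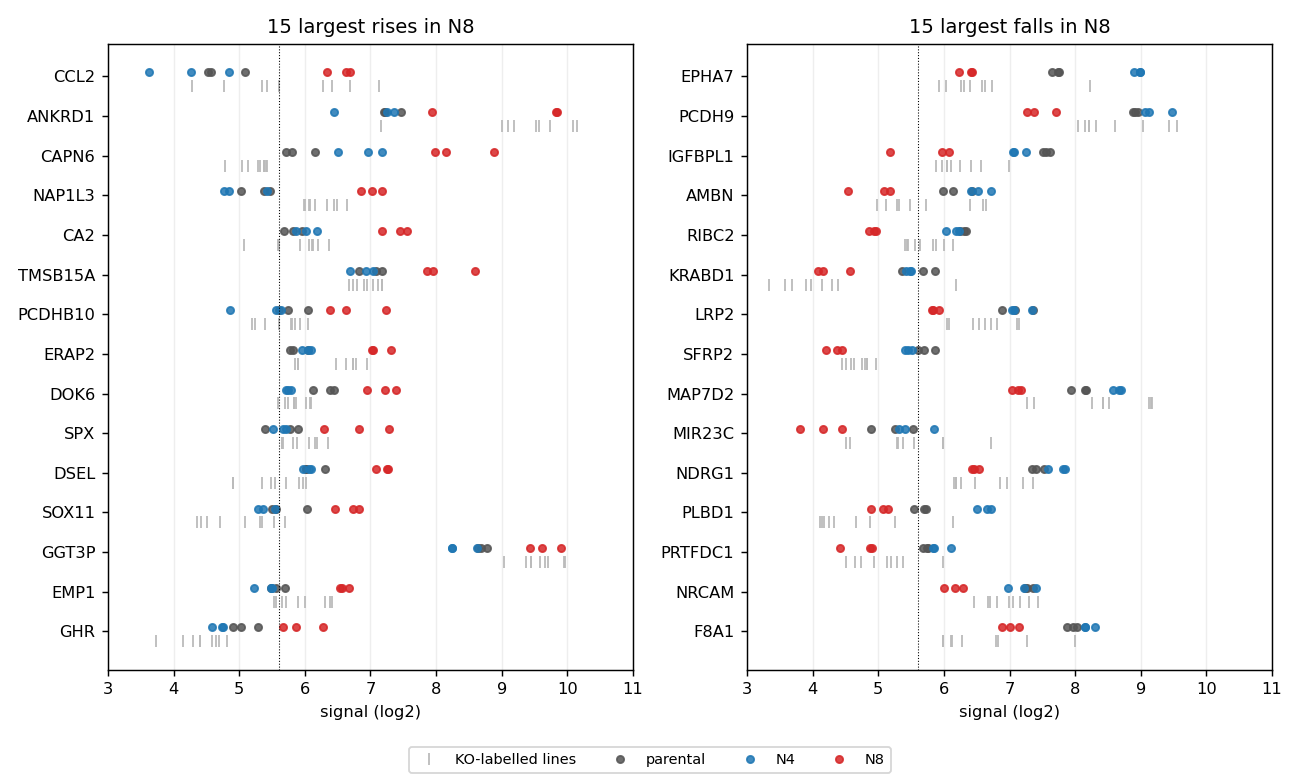
Log2 signal (x axis) of the 15 largest rises (left) and 15 largest falls (right) in every array, with N8 in red, N4 in blue, parental cells in dark grey and the KO-labelled lines as light ticks below. The dotted line marks 5.6, above which at least 3 arrays had to lie. The 3 N8 arrays sit to the right of all 6 reference arrays on the left side (CCL2: 6.33 to 6.69 against 3.62 to 5.09) and to their left on the right side (EPHA7: 6.23 to 6.43 against 7.65 to 8.99).

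The 15 largest falls were led by adhesion and guidance receptors. EPHA7, a receptor for ephrin ligands in axon guidance, read 6.23, 6.43 and 6.41 in N8, 7.76, 7.65 and 7.74 in the parental cells and 8.98, 8.90 and 8.99 in N4. Each line was tight and the 3 lines were far apart, with N8 lowest, by −1.98 ± 0.32 (adjusted p = 0.000481). The difference between N4 and the parental cells, 1.24, had an adjusted p of 0.141 in the fit over all 18 arrays, whose spread includes that of the KO-labelled lines. Among these, A10 read 8.23, 6.26 and 5.92 for EPHA7, with replicate 1 far from the other arrays of its line. PCDH9, a protocadherin, read 7.70, 7.37 and 7.27 in N8, 8.96, 8.88 and 8.91 in the parental cells and 9.47, 9.06 and 9.12 in N4, lower by −1.62 ± 0.12 (adjusted p = 9.23e-07). NRCAM, a neuronal cell adhesion molecule, read 6.29, 6.0 and 6.17 in N8, 7.35, 7.26 and 7.24 in the parental cells and 7.40, 6.97 and 7.22 in N4. Its fall of 1.09 on the log2 scale (SE 0.17, adjusted p = 0.000343) was alike against either reference line, at −1.13 and −1.04.

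Secreted factors and endocytic receptors fell too. IGFBPL1, an insulin-like growth factor binding protein-like gene, read 5.17, 5.97 and 6.08 in N8, 7.56, 7.51 and 7.62 in the parental cells and 7.06, 7.05 and 7.25 in N4 (−1.60 ± 0.16, adjusted p = 4.82e-06). Replicate 1 of N8 was its lowest array. SFRP2, a secreted antagonist of Wnt, read 4.37, 4.44 and 4.20 in N8, 5.87, 5.61 and 5.70 in the parental cells and 5.41, 5.45 and 5.52 in N4 (−1.26 ± 0.08, adjusted p = 1.71e-07). LRP2, the endocytic receptor megalin of kidney proximal tubule, read 5.82, 5.83 and 5.92 in N8, 7.36, 6.88 and 7.08 in the parental cells and 7.34, 7.07 and 7.04 in N4. The 3 N8 readings of LRP2 lay within a narrow band and below all reference arrays (−1.27 ± 0.14, adjusted p = 1.68e-05). AMBN, the enamel matrix gene ameloblastin, fell by 1.43 (SE 0.14, adjusted p = 4.82e-06) and PLBD1, a phospholipase B-like gene, by 1.11 (SE 0.21, adjusted p = 0.00187). PLBD1 was called against N4 alone (−1.59, adjusted p = 0.000532) and not against the parental cells alone (−0.62, adjusted p = 0.101).

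Intracellular genes made up the rest. NDRG1, which responds to hypoxia and stress, read 6.45, 6.54 and 6.43 in N8, 7.34, 7.52 and 7.40 in the parental cells and 7.59, 7.84 and 7.81 in N4 (−1.11 ± 0.18, adjusted p = 0.000532). RIBC2, a ciliary microtubule protein gene, read 4.97, 4.86 and 4.94 in N8 against 6.03 to 6.33 in the reference arrays (−1.30 ± 0.11, adjusted p = 1.03e-06). KRABD1 fell by 1.28 (SE 0.31, adjusted p = 0.00833) and PRTFDC1, a phosphoribosyltransferase-like gene, by 1.10 (SE 0.15, adjusted p = 0.000135). F8A1, the gene of a huntingtin-associated protein with near-identical X-linked copies and 6 probe sets, fell by 1.07 (SE 0.28, adjusted p = 0.013), but not without replicate 2 of N8 (adjusted p = 0.0565), nor against the parental cells alone (adjusted p = 0.0569). The other 14 falls were called under every alternative run that could test them. For 3 of the 15 falls, SFRP2, KRABD1 and MIR23C, the mean of the reference arrays lay below 5.6.

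MAP7D2, a microtubule-associated protein gene of chromosome X, and the microRNA gene MIR23C fell side by side. MIR23C lies inside MAP7D2 in the RefSeq annotation (GRCh38.p14). The mature sequence is shown because it is the single microRNA gene among the leading genes, from RefSeq (GRCh38.p14, chrX:20017101-20017122, minus strand), with bases 2 to 8, the seed, in capitals.
hsa-miR-23c: aUCACAUUgccagugauuaccc
MAP7D2 read 7.03, 7.13 and 7.17 in N8, 8.16, 7.94 and 8.15 in the parental cells and 8.58, 8.67 and 8.70 in N4 (−1.26 ± 0.17, adjusted p = 0.000116). MIR23C read 4.45, 4.16 and 3.80 in N8, 5.53, 4.89 and 5.26 in the parental cells and 5.85, 5.40 and 5.32 in N4 (−1.24 ± 0.29, adjusted p = 0.00606). The 3 N8 readings of MIR23C were below all reference readings, though all but 1 of the 9 lay under 5.6, and the signal of its probe set and that of its host transcript cannot be told apart. Of 295 microRNA genes tested, 8 were called in N8 (2.71%), against 1695 of 8696 protein-coding genes (19.5%) and 60 of 457 long non-coding RNA genes (13.1%).

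The same genes were read in the 9 arrays of the KO-labelled lines, a comparison that uses the same N8 arrays and in which 2065 genes were called (21.3%), 1125 higher in N8 (11.6%) and 940 lower (9.7%). Against them CAPN6 differed by 3.10 ± 0.17 (adjusted p = 2.56e-09), with KO-labelled readings from 4.79 to 5.43 and a median of 5.31, below every array of the wild-type lines. SOX11 was at 1.68 ± 0.15, without a test as above. DSEL differed by 1.67 ± 0.11 (adjusted p = 3.62e-08) and CA2 by 1.5 ± 0.12 (adjusted p = 3.39e-07). For these 4 genes all N8 arrays stood above all KO-labelled arrays as well. ANKRD1 differed by −0.08 ± 0.43 (adjusted p = 0.925), with KO-labelled readings from 7.16 to 10.15 and a median of 9.53. GGT3P differed by 0.08 ± 0.13 (adjusted p = 0.721). In both genes the N8 readings lay inside the range of the KO-labelled arrays, but for ANKRD1 replicate 1 of A10 alone set its low end. The other KO-labelled arrays of ANKRD1 ran from 9.01 to 10.15, above replicate 1 of N8 (7.93). CCL2 had KO-labelled readings on both sides of N8, from 4.28 to 7.13, and differed by 0.78 ± 0.25 (adjusted p = 0.0368). NAP1L3 ran from 5.99 to 6.64 in the KO-labelled arrays, above every reference array and below every N8 array. Its difference was 0.78 ± 0.14 (adjusted p = 0.00107).

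Among the falls, MIR23C differed from the KO-labelled lines by −1.34 ± 0.27 (adjusted p = 0.00208), MAP7D2 by −1.30 ± 0.16 (adjusted p = 3.06e-05) and PCDH9 by −1.17 ± 0.12 (adjusted p = 4.01e-06). PCDH9 was lower in each N8 array than in any of the other 15 arrays. EPHA7 differed by −0.21 ± 0.30 (adjusted p = 0.681), NDRG1 by −0.15 ± 0.17 (adjusted p = 0.581) and KRABD1 by 0.11 ± 0.29 (adjusted p = 0.844). EPHA7 in the KO-labelled arrays ran from 5.92 to 8.23 with a median of 6.40, close to N8. SFRP2 ran from 4.44 to 4.97 and IGFBPL1 from 5.88 to 6.99 in the KO-labelled arrays, each below every reference array. From those lines N8 differed by −0.37 ± 0.08 for SFRP2 (adjusted p = 0.00247) and −0.51 ± 0.15 for IGFBPL1 (adjusted p = 0.0208). For PLBD1, N8 was at 0.38 ± 0.20 against the KO-labelled lines (adjusted p = 0.201), and for F8A1 at 0.41 ± 0.26 (adjusted p = 0.298). With PRTFDC1 at −0.36 ± 0.14 (adjusted p = 0.0869), 6 of the 15 falls were not called against the KO-labelled lines. All N8 arrays lay below all KO-labelled arrays for 6 of the 15 falls, and above them for 11 of the 15 rises. Replicate 1 of A10 was the highest KO-labelled array for EPHA7 (8.23), NDRG1 (7.35), KRABD1 (6.19), PLBD1 (6.13) and F8A1 (7.99). Its reading enters the difference of each of these genes.

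**Figure D2:**
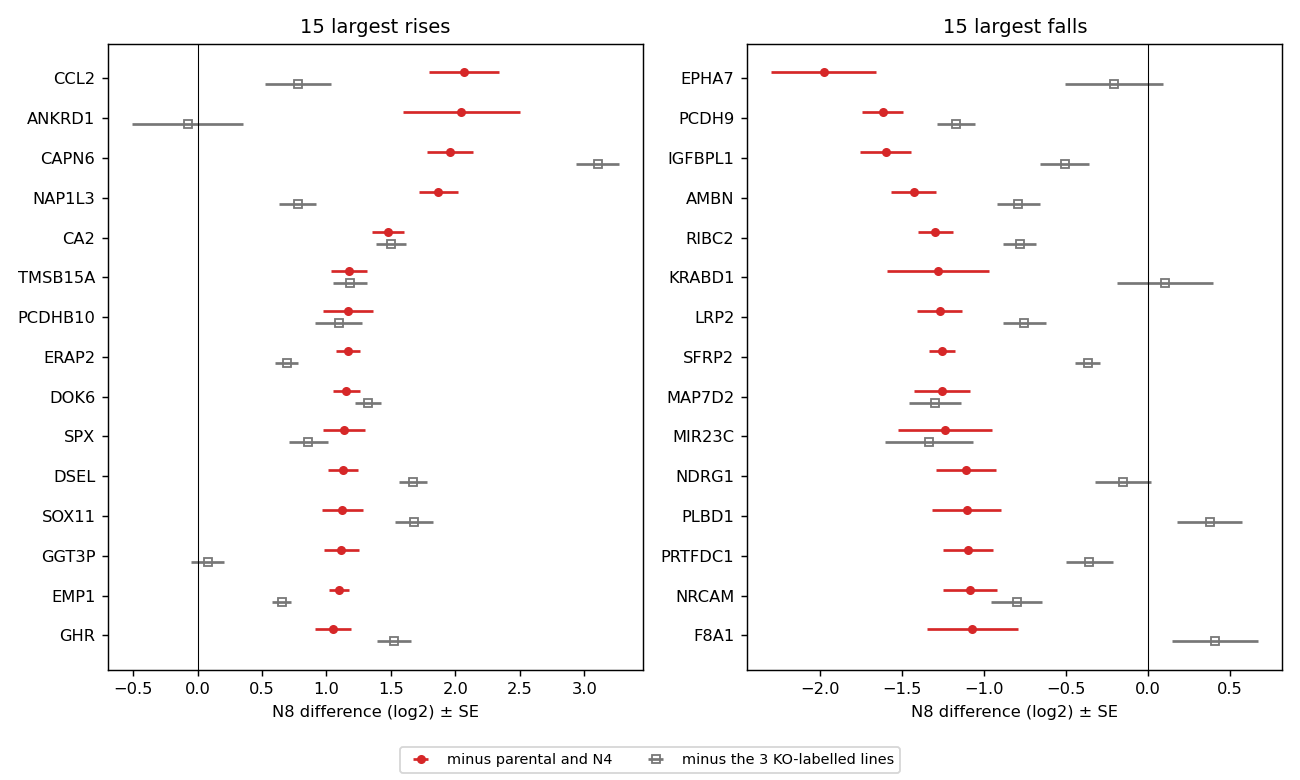
Difference of N8 (x axis, log2, with limma's standard error) for the 15 largest rises and 15 largest falls, against the mean of the parental and N4 lines (red) and against the mean of the 3 KO-labelled lines (grey squares). Both sets of values share the N8 arrays. ANKRD1, GGT3P, EPHA7, NDRG1 and KRABD1 stand near 0 on the second scale (−0.08, 0.08, −0.21, −0.15 and 0.11), while CAPN6 moves out to 3.10.

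The listed genes of named pathways were read next. The counts below are to be set against the 10.3% of all genes called higher and the 8.05% called lower, and 30 of the 33 lists had at least 3 measured members. YAP and TAZ are co-activators that, with TEAD factors, drive genes of cell spreading and stretch, and SRF does so with actin-sensing cofactors. Of 14 measured genes responsive to YAP or SRF, 7 rose and 0 fell, with a median of 0.285. These 7 include AXL, a receptor tyrosine kinase gene tested only through the N8 arrays, so that 6 of the other 13 rose. AXL read 6.25, 5.90 and 5.95 in N8, 5.70, 5.57 and 5.41 in the parental cells and 5.56, 5.52 and 5.33 in N4 (a difference of 0.52 ± 0.09). TPM1, a tropomyosin of actin filaments, rose by 0.40 ± 0.10 (adjusted p = 0.0117), and VCL, the focal adhesion protein vinculin, by 0.29 ± 0.08 (adjusted p = 0.0168). All 3 N8 arrays lay above the 6 reference arrays for each of these genes. CCN2, a matricellular gene often used as a YAP readout and named here after its values were seen, was at 0.79 ± 0.43 (adjusted p = 0.222). TPM1 lost its call without replicate 3 of N8 (adjusted p = 0.0628) and with the mean of its probe sets (adjusted p = 0.215), and VCL without replicate 2 (adjusted p = 0.0719). Relative to their neighbours TPM1 was at 0.12 and VCL at 0.19, and 2 of the 14 genes passed, ANKRD1 and AXL. The count, AXL included, was 3 without replicate 2 or without replicate 3 of N8, and the list's median against the KO-labelled lines was −0.109.

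The letters GGAATG, or CATTCC on the other strand, form the core that TEAD factors bind, and were searched on both strands of the 250 bases before each start in RefSeq (GRCh38.p14). They stood in 3 of the 11 listed genes with a promoter in the table (ANKRD1, CCN2 and VCL), and in 11.9% of 27305 promoters in all. The promoters of ANKRD1 (chr10:90921088-90921337, minus strand) and VCL (chr10:73997866-73998115, plus strand), the called genes with a match, are printed with the matched letters in capitals.
ANKRD1: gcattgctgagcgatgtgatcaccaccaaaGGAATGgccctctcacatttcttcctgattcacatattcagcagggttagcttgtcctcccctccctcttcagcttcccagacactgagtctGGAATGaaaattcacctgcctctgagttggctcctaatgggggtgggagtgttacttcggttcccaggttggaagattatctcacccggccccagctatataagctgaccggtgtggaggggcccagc
VCL: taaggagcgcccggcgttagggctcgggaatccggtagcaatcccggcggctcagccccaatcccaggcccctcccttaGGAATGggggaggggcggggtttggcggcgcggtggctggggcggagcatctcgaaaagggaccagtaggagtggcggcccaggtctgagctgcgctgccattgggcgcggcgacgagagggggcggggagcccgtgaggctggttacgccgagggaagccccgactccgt
ANKRD1 has 2 matches and VCL has 1. A match describes the letters only, and binding was not measured.

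Cholesterol synthesis and low-density lipoprotein uptake moved the other way: of 20 measured genes 8 fell and 0 rose, with a median of −0.241. Sterol shortage releases SREBF2, the transcription factor that switches on this pathway. INSIG1, which holds that system in the endoplasmic reticulum, read 8.32, 8.36 and 8.53 in N8, 9.19, 9.25 and 9.64 in the parental cells and 8.99, 9.24 and 9.34 in N4 (−0.87 ± 0.16, adjusted p = 0.00142). HMGCS1, an early enzyme of the pathway, read 8.03, 8.20 and 8.21 in N8, 8.82, 9.04 and 9.12 in the parental cells and 8.85, 8.77 and 8.79 in N4 (−0.75 ± 0.07, adjusted p = 4.45e-06). SQLE, which oxidises squalene, fell by 0.61 (SE 0.11, adjusted p = 0.00095), or by 0.40 relative to its neighbours, and DHCR7, a late enzyme, by 0.44 (SE 0.07, adjusted p = 0.000532). The N8 readings of these 4 genes were below all reference readings. Leaving out any of the 9 arrays gave 6 to 10 falls, and 7 genes fell relative to their neighbours. Against the KO-labelled lines the list's median was −0.067, with HMGCS1 at −0.73 ± 0.07 (adjusted p = 2.19e-06) and DHCR7 at −0.16 ± 0.07 (adjusted p = 0.105). The sterol response letters TCACNCCAC, or GTGGNGTGA on the other strand, stood before 1 of 18 listed genes with a promoter in the table, SREBF2 itself (chr22:41832855-41833104, plus strand), and in 0.875% of all promoters. The gene, chosen for print after its values were seen, was among the 8 that fell (−0.41 ± 0.09, adjusted p = 0.0057).
SREBF2: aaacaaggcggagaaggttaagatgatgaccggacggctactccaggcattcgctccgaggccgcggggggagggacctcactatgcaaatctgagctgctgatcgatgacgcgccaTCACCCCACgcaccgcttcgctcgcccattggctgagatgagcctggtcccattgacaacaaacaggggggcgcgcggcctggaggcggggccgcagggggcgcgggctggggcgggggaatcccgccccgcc

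Ligands and receptors of developmental signalling changed in both directions. In the BMP and TGF-beta list, 2 of 13 measured genes rose and 1 was called lower. That gene, GREM1, a secreted BMP antagonist, overlapped the parental arrays and differed from them by −0.0033, against −0.92 from N4 (−0.46 ± 0.13 in all, adjusted p = 0.0219). It lost its call without replicate 1 of N8 (adjusted p = 0.105) and without replicate 2 (adjusted p = 0.15). BMP2, a secreted ligand, read 7.50, 7.76 and 7.75 in N8, 7.21, 6.73 and 6.81 in the parental cells and 6.45, 6.40 and 6.29 in N4 (1.02 ± 0.18, adjusted p = 0.000801). CHRDL1, a secreted antagonist of BMP ligands, read 7.62, 7.42 and 7.17 in N8, 6.52, 6.43 and 6.40 in the parental cells and 6.96, 6.54 and 6.70 in N4 (0.81 ± 0.12, adjusted p = 0.000173). So a ligand and an antagonist were each above all reference arrays. In the KO-labelled arrays CHRDL1 ran from 5.12 to 5.62, below every wild-type array. BMP2 read 6.72 in replicate 1 of A10, and from 7.78 to 8.29 in the other KO-labelled arrays, above every N8 array. Of 20 Wnt genes, 2 rose and 3 fell, and FZD4, a Frizzled receptor, was the second after SFRP2 among those that fell (−0.45 ± 0.10, adjusted p = 0.00372). SFRP1, the related antagonist, rose by 0.32 ± 0.07 (adjusted p = 0.00438), but was at 0.20 relative to its neighbours (adjusted p = 0.091), and in replicates 2 and 3 alone its adjusted p was 0.0509.

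Receptors and adhesion molecules of neural guidance were mostly lower where they passed. Of 18 ephrins and Eph receptors 4 fell and 1 rose, with a median of −0.060. EPHA3, a receptor, read 7.10, 7.01 and 6.97 in N8, 7.88, 7.71 and 7.71 in the parental cells and 8.11, 7.99 and 7.99 in N4 (−0.87 ± 0.10, adjusted p = 1.5e-05). EPHA4 fell by 0.35 (SE 0.08, adjusted p = 0.0078), and EFNB2, a transmembrane ligand, by 0.41 (SE 0.09, adjusted p = 0.00563). EFNB2 lies on chromosome 13, where neighbouring genes were lower too, and relative to them it was at −0.17 (adjusted p = 0.305). In replicates 2 and 3 alone its adjusted p was 0.0751. Of 11 cadherins and protocadherins 3 fell and 0 rose, and PCDH10, after PCDH9, fell by 0.77 (SE 0.11, adjusted p = 0.000158). The list holds none of the clustered protocadherins, among which PCDHB10 rose. PCDH9 and PCDH10 were lower in each N8 array than in any reference array. Of 14 insulin-like growth factor genes, 2 fell, IGFBPL1 and IGF2BP2, an RNA-binding protein gene at −0.19 ± 0.05 (adjusted p = 0.0193). IGF2BP2 was at 0.0039 relative to its neighbours, and its adjusted p was 0.0628 without replicate 2 and 0.0836 without replicate 3 of N8.

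Other families of the leading rises were read as well. Besides CA2, CA13 was the only other of 6 carbonic anhydrases to rise, by 0.54 ± 0.11 (adjusted p = 0.00276), and 0 fell. Of 10 measured X-linked BEX, TCEAL, GPRASP and NAP1L genes, which are expressed in neural tissue, 5 rose and 0 fell, with a median of 0.228. The ARMCX genes of that list were not measured. TCEAL8 read 9.30, 9.27 and 9.34 in N8, 9.08, 9.0 and 9.12 in the parental cells and 8.90, 8.88 and 8.94 in N4 (0.32 ± 0.05, adjusted p = 0.000812). In the KO-labelled arrays TCEAL8 ran from 9.21 to 9.35, also above every reference array. N8 differed from those lines by 0.03 ± 0.05 (adjusted p = 0.723). Without replicate 1 of N8, 3 of the 10 rose, and relative to neighbouring genes, 2 did. Of 8 chemokine and NF-kB genes 2 rose, CCL2 and NFKB2, an NF-kB subunit (0.39 ± 0.10, adjusted p = 0.0113), and NFKB2 was at 0.19 relative to its neighbours (adjusted p = 0.274).

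Genes of nucleic acid sensing and the interferon response had 5 of 13 measured members higher and 1 lower, with a median of 0.060. IFIH1, which encodes the cytosolic RNA sensor MDA5, read 6.14, 6.06 and 6.14 in N8, 5.26, 4.82 and 5.02 in the parental cells and 5.25, 4.96 and 5.44 in N4 (a difference of 0.99 ± 0.11). SAMD9, an antiviral factor gene, read 7.27, 7.16 and 7.34 in N8, 6.64, 6.52 and 6.59 in the parental cells and 6.57, 6.67 and 6.58 in N4 (0.66 ± 0.09, adjusted p = 0.000157). Both stood above all reference arrays. IFIH1 was tested only through the N8 arrays, and of the 12 other members 4 rose. At the same time 12 listed genes, among them IFIT1, IFIT2, IFIT3, MX2 and RSAD2, stayed below the filter, so that several of the usual interferon-induced genes were not tested. Without replicate 3 of N8, and relative to neighbouring genes, 3 of the 13 passed, IFIH1 included.

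Of 13 early-response genes 1 rose and 2 fell, with a median of 0.023. MYC, a transcription factor of growth, read 7.46, 8.16 and 8.0 in N8, 8.48, 8.66 and 8.64 in the parental cells and 8.21, 8.65 and 8.67 in N4 (−0.68 ± 0.19, adjusted p = 0.0204). Replicate 1 was again the lowest array of N8, and without it MYC was at −0.47 (adjusted p = 0.129). With replicate 1 left out of every line it was at −0.57 (adjusted p = 0.000642), and with the replicate block its adjusted p was 0.023. Relative to its neighbours the adjusted p was 0.151. JUN, an early-response factor, fell by 0.45 (SE 0.10, adjusted p = 0.00616), with an adjusted p of 0.0565 relative to its neighbours. The rise was IER3, an early-response gene, at 0.44 ± 0.13 (adjusted p = 0.031), which lost its call when any of 5 arrays was left out: replicates 1 and 2 of the parental cells (adjusted p = 0.0548 and 0.0544), replicate 1 of N4 (0.0643), and replicates 2 and 3 of N8 (0.0904 and 0.126). DUSP1, a MAP kinase phosphatase, was at 0.57 ± 0.24 (adjusted p = 0.105, or 0.000674 with the replicate block). Of 15 MYC targets and MYC, MYC itself was the only gene called. Of 22 S-phase genes 5 rose and 2 fell and of 20 genes of G2 and mitosis 4 rose and 1 fell, each set with 1 rise relative to neighbouring genes. CCNB2, a mitotic cyclin, read 8.67, 8.67 and 8.66 in N8, 8.20, 8.06 and 8.16 in the parental cells and 7.98, 8.03 and 8.11 in N4 (0.58 ± 0.06, adjusted p = 1.15e-05). It lies on chromosome 15, where genes were higher in general, and relative to its neighbours it was at 0.28 (adjusted p = 0.00988).

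Matrix and metabolic genes were among the remaining lists. Of 12 extracellular matrix genes 2 rose and 3 fell. TIMP3, a tissue inhibitor of metalloproteinases, read 7.88, 7.88 and 7.86 in N8, 8.53, 8.48 and 8.43 in the parental cells and 8.64, 8.67 and 8.68 in N4 (−0.70 ± 0.05, adjusted p = 9.66e-07). LOX, which crosslinks collagen, read 6.49, 6.64 and 6.66 in N8, 7.13, 7.05 and 7.08 in the parental cells and 7.27, 7.66 and 7.58 in N4 (−0.70 ± 0.11, adjusted p = 0.000461). The 3 readings of TIMP3 in N8 were nearly identical and also below all KO-labelled arrays (8.39 to 9.24). Without replicate 2 or 3 of the parental cells, or replicate 3 of N4, 0 of the 12 rose. Of 14 hypoxia and glycolysis genes 3 rose and 2 fell: HK1, the first enzyme of glycolysis, rose by 0.40 ± 0.06 (adjusted p = 0.000134) and BNIP3, a mitophagy receptor, by 0.42 ± 0.08 (adjusted p = 0.00141), while NDRG1 of the same list fell. Of 17 ribosomal protein genes 2 fell, RPS6 of chromosome 9 by 0.59 (SE 0.06, adjusted p = 3.52e-06) and RPL6 by 0.20 (SE 0.05, adjusted p = 0.00816). Relative to their neighbours RPS6 was at −0.21 (adjusted p = 0.0249) and RPL6 had an adjusted p of 0.431. Of 7 imprinted genes, limma called 0 and 1 had an unadjusted p under 0.05, KCNQ1OT1, an antisense RNA, at −0.40 ± 0.14 (adjusted p = 0.0577, or 0.000946 with the replicate block). Of 12 unfolded protein and amino acid stress genes 0 rose and 3 fell, and relative to neighbouring genes 1 rose and 0 fell. Of 23 HOX genes 1 rose and 3 fell, and of 9 oxidative phosphorylation genes 1 rose and 2 fell. Of 14 p53 targets 2 rose and 0 fell, and of 14 epithelial junction and keratin genes 1 rose and 1 fell.

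**Figure D3:**
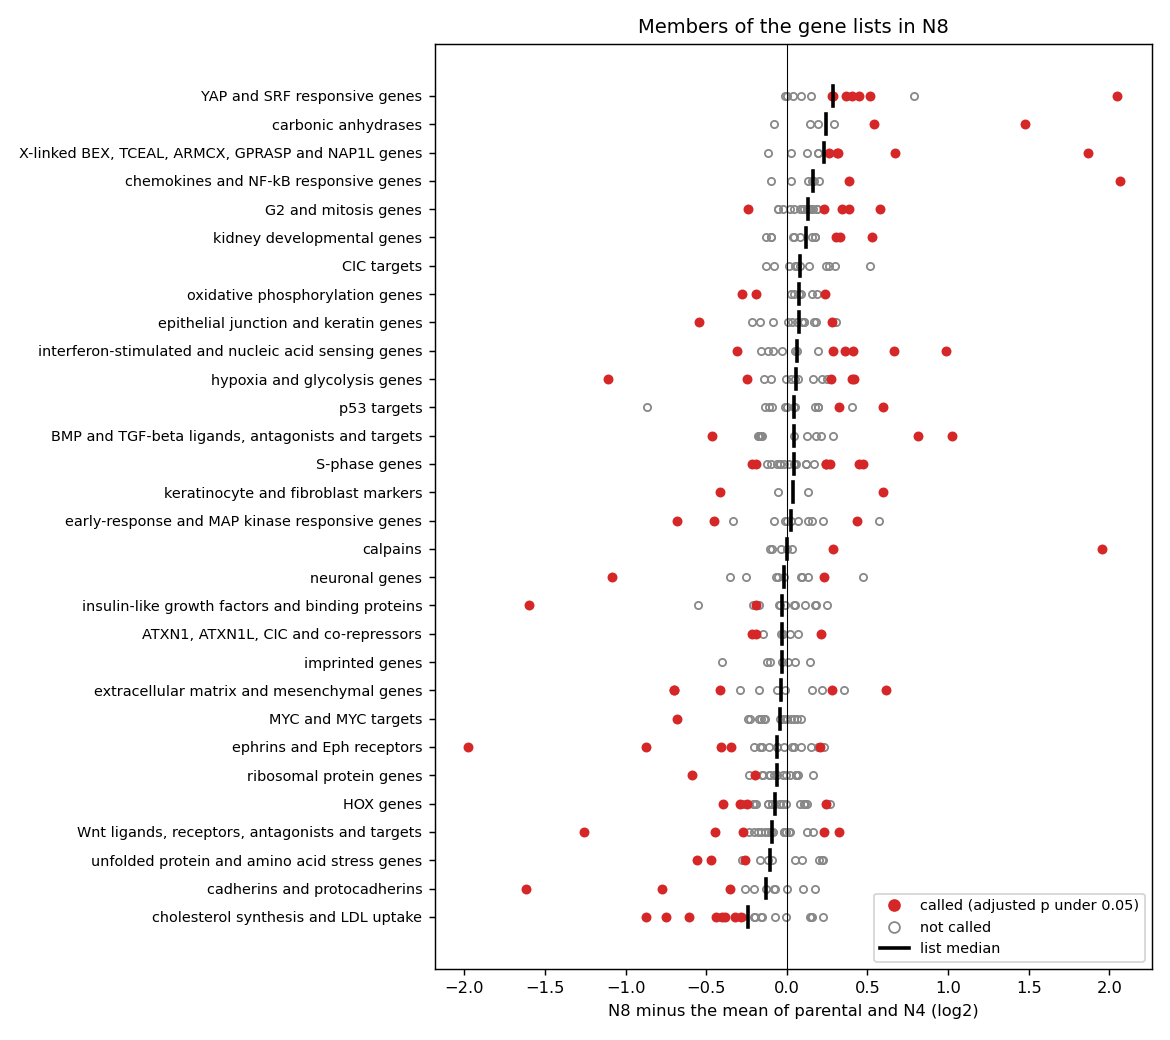
Difference of N8 from the mean of the parental and N4 lines (x axis, log2) for each measured member of the 30 lists with at least 3 such members, filled red where called and open where not, with the median of the list as a bar. The cholesterol list lies lowest (median −0.241) and the YAP and SRF list highest (0.285), and most lists hold members on both sides of 0.

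The label of embryonic kidney was set against marker lists. Of 19 kidney developmental genes 13 had a probe set and 12 were measured, with PAX8 below the filter. OSR1, a nephron progenitor factor, read 5.92, 5.99 and 5.69 in N8 against 4.89 to 5.55 in the reference arrays (a difference of 0.53 ± 0.10), and GATA3, a factor of the ureteric bud, rose by 0.33 ± 0.07 (adjusted p = 0.00269). PAX2, a factor of early kidney development, was at 0.31 ± 0.08. OSR1 and PAX2 were tested only through the N8 arrays, and of the other 10 genes 1 rose, GATA3, and 0 fell. Relative to its neighbours the adjusted p of GATA3 was 0.764. Of 11 measured neuronal genes 1 rose and 1 fell, while 7, among them DCX, STMN2 and CHGA, were below the filter. The leukocyte markers CD14, LYZ, CSF1R and TYROBP were below the filter too. CD68, a lysosomal gene on that list, read 7.77, 7.47 and 7.54 in N8, 6.79, 6.70 and 6.98 in the parental cells and 7.15, 7.12 and 7.12 in N4 (0.62 ± 0.10, adjusted p = 0.000481), and SPI1, the defining myeloid factor, was at 0.03 ± 0.09 (adjusted p = 0.853). Of 4 measured keratinocyte and fibroblast markers SFN rose by 0.60 ± 0.13 (adjusted p = 0.00397), and LUM was at −0.41 ± 0.11 (adjusted p = 0.017, and 0.138 without replicate 2 of N8), with KRT5, KRT14, KRT1 and DCN below the filter. The part of these markers in the other results was not tested.

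The calls were unevenly spread over the chromosomes. On chromosome 13 the median difference was −0.165, and 51 of 170 genes fell while 0 rose. Chromosome 18 had a median of −0.115 with 38 falls and 7 rises among 144 genes, and chromosome 9 a median of −0.100 with 113 falls and 10 rises among 419. Higher were chromosome 15, with a median of 0.172, 88 rises and 3 falls among 308 genes, chromosome 20 (0.130, 81 rises and 1 fall among 273) and chromosome 10 (0.127, 107 rises and 6 falls among 403). Chromosome 2 had 158 rises and 26 falls among 619 genes and chromosome X 63 rises and 16 falls among 316. Chromosomes 6 and 14 had a smaller share of calls than the 18.4% of all genes tested, at 9.63% and 7.46%. Between N4 and the parental cells, the chromosome medians ran between −0.120 on chromosome 13 and 0.083 on chromosome 17.

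**Figure D4:**
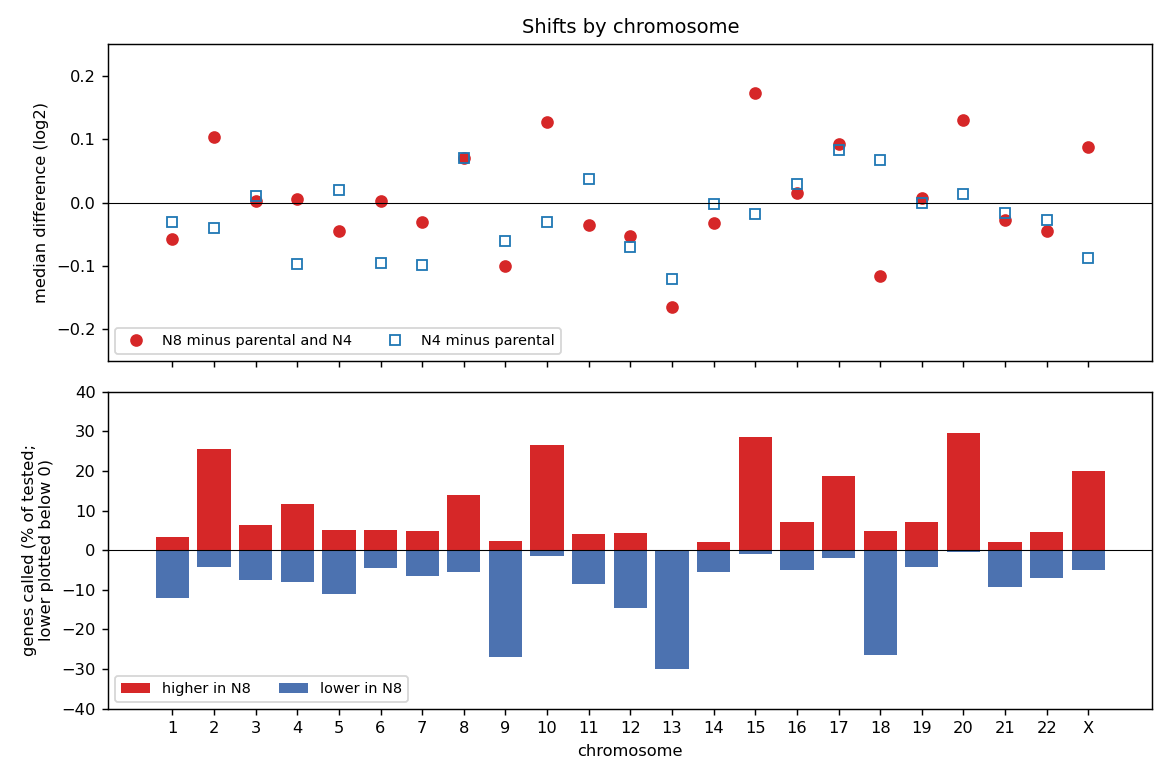
Upper plot: median difference over the tested genes of each chromosome (y axis, log2), for N8 minus the mean of parental cells and N4 (red) and N4 minus parental cells (blue squares). Lower plot: percent of tested genes called higher (red) or lower (blue, drawn below 0) in N8. Chromosomes 2, 10, 15 and 20 stand out upward and 9, 13 and 18 downward, with 51 of 170 genes lower on chromosome 13.

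Runs of neighbouring genes carried part of these shifts. Over all windows of 41 consecutive tested genes, the window medians ran from −0.37 to 0.365 in N8, and from −0.213 to 0.243 between N4 and the parental cells. Of 8761 windows, 93 had a median past 0.3 in size in N8 and 0 did between N4 and the parental cells. Neighbouring windows share genes, so these counts are not of separate runs. The runs named here were picked as the most extreme in N8 that do not overlap, so their medians and counts are descriptions. Among runs that were higher, the one from NSFL1C to TMX4 on chromosome 20 had a median of 0.365 and 27 of its 41 genes rose. NSFL1C, a cofactor of the p97 ATPase, read 8.10, 8.20 and 8.12 in N8, 7.50, 7.62 and 7.44 in the parental cells and 7.42, 7.61 and 7.43 in N4 (0.64 ± 0.10, adjusted p = 0.000461). TMX4, a thioredoxin-related membrane protein gene at the other end, rose by 0.41 ± 0.07 (adjusted p = 0.00113). Setting genes against their neighbours takes out a shift that they share, and NSFL1C and TMX4 then had adjusted p-values of 0.0641 and 0.234. On chromosome 15 the run from SPPL2A to OAZ2 had a median of 0.308 with 25 rises and 1 fall, and on chromosome 2 the run from C1D to BOLA3-DT had a median of 0.298 with 19 rises and 1 fall. OAZ2, an antizyme that limits polyamine synthesis, rose by 0.59 ± 0.09 (adjusted p = 0.000275), and BOLA3-DT, a divergent transcript, by 0.66 ± 0.09 (adjusted p = 0.000117).

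Among runs that were lower, 2 on chromosome 9 had medians of −0.37 and −0.367, with 28 and 27 falls among 41 genes each. The run from DZIP1 to MIR4502 on chromosome 13 had a median of −0.27 with 21 falls and 0 rises. DZIP1, a gene of cilium formation, read 8.43, 8.48 and 8.42 in N8, 8.72, 8.72 and 8.78 in the parental cells and 8.78, 8.79 and 8.68 in N4 (−0.30 ± 0.06, adjusted p = 0.00269), and its adjusted p was 0.452 relative to its neighbours. The same windows had medians of 0.126, 0.201 and 0.161 (chromosomes 20, 15 and 2) and of −0.406, −0.417 and −0.151 (chromosomes 9, 9 and 13) against the KO-labelled lines. DNA copy number was not measured in the files used here, and its part in these runs was not tested.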

How the data were processed

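RNA of 18 cultures (6 HEK lines, 3 arrays each) was read on Affymetrix arrays. Signals were deposited as log2 values. Per the submitters' processing notes the authors used Affymetrix Expression Console. The version and options chosen were not given in the sources used. Of 53617 probe sets 16098 had 1 gene symbol and 37519 none. The probe set with the highest mean stood for a gene (14884 genes, 779 with several), and 9686 genes with at least 3 of 18 arrays above 5.6, the 40th percentile, were tested. limma 3.58.1 (R 4.3.3) fitted a mean per line over all 18 arrays, without a pseudocount. Tests were two-sided with Benjamini-Hochberg adjustment over all 9686 genes, and errors of differences are limma's standard errors. The model was tested on simulated data first. The 18 arrays limit the precision.

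Named genes are ATXN1L, ATXN1 and CIC, the 15 largest rises and 15 largest falls among called genes with separated arrays, from every list at most 4 genes by smallest p, and the end genes of windows. Y-linked genes and XIST were left out. Members and lists were chosen with earlier results of these data known. Arrays of the wild-type lines with the same replicate number in their titles deviated together from their line means (r = 0.10008 to 0.51427), each over 0.1, so the blocked fit was run beside the main fit. Replicates 2 and 3 of different lines correlated about as much across numbers (0.088 to 0.288) as within them (0.1 to 0.252), and replicate 1 correlated with them at −0.421 to −0.186, so the pattern sets replicate 1 apart and does not separate 2 from 3. Alternatives covered the filter, scaling, probe set choice, variance model, replicate block, neighbour centring and leaving out each array. Promoter and microRNA sequences came from RefSeq (GRCh38.p14).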

Additional observations from a re-analysis of the deposited data

Results flagged for a closer look

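For ANKRD1, replicate 1 of N4 was the lowest of the 6 reference arrays at 6.44, far below the nearest of the others for the range of that group. DSEL had its highest reference array in replicate 1 of the parental cells, at 6.31, and SOX11 likewise at 6.04, each standing apart from the other 5. Chance alone gives such a gap in about 1 in 20 groups. For DOK6, every N8 array was above and every N4 array below the parental arrays, and N8 minus N4 was 1.44. In probe sets without a gene symbol, which enter no comparison of named genes, 1101 of 14000 tested were called in N8 against the reference (7.86%), 589 higher and 512 lower.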

How the results depend on the processing

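The largest rises, GHR and SOX11 left aside, kept their direction and call under every alternative run, and the 15 largest falls did so except F8A1 without replicate 2 of N8. Of 4625 values of 155 named genes under alternatives, 173 lost the call and 100 gained it. The sign changed in 21 values, 18 of them of genes not called. The other 3, of called genes, arose relative to neighbouring genes: IGF2BP2 at 0.0039, PCNA at −0.02 and MELK at 0.03. With that setting 7 uncalled genes changed sign too. The counts of genes called moved as follows. For N8 against parental and N4 (1781) they were 797 relative to neighbours, 900 at an adjusted p under 0.01 and 171 with a fold of at least 1.5. With 1 array left out they ran from 1234 (without N8 replicate 3) to 2011 (without A10 replicate 1). N8 against parental (1424) gave 2149 with the replicate block, 502, 586 and 188 under the same 3 settings, and 876 (without parental replicate 3) to 1688. N8 against N4 (1347) gave 499, 567, 191 and 801 (without N4 replicate 3; 866 without N4 replicate 2) to 1613. N8 against KO-labelled lines (2065) gave 953, 1032, 178 and 1438 to 2282. The difference between the reference lines (53 between N4 and parental cells), whose alternatives were chosen after seeing the data, gave 26 without the filter, 168 with the replicate block, 171 with a replicate 1 term, 17, 16, 12 and 9 (without N4 replicate 2) to 116 (without A10 replicate 1). The cause of these moves was not tested. The replicate block gave 2471 for the main comparison and ended no call among the named genes. Centring each array on its median moved the share of higher calls from 56.2% to 47.4% and the median of all genes from 0.003 to −0.018. Dim probe sets limit the folds of genes whose reference mean lay below 5.6.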

Other observations

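On chromosome 18, where more genes were lower than higher in N8, DSEL, TMX3, CCDC102B and DOK6 are consecutive tested genes, a run chosen after its values were seen. DSEL was at 1.13 ± 0.11 and DOK6 at 1.16 ± 0.11. CCDC102B, a centrosomal protein gene between them, was at 0.59 ± 0.09 (adjusted p = 0.000362), and TMX3, a disulfide isomerase gene, at 0.07 ± 0.08 (adjusted p = 0.626).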
